A study of Rattus norvegicus and Mus musculus with 39 samples.

Results

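The testis of peripubertal mice was compared 2 days after mono(2-ethylhexyl) phthalate (MEHP) and after corn oil. MEHP is the monoester that the body makes from the plasticizer di(2-ethylhexyl) phthalate. The mice were chosen by their labels and comprised 13 of the 39 samples of the series, 7 on corn oil and 6 on MEHP. The MEHP mice received 700 mg/kg by oral gavage, from a mix of 700 mg MEHP with 300 mg corn oil. The controls received an equivalent amount of corn oil, and the time label was day 2 for both groups. The series also holds peripubertal and adult rats under the same dose. Strain, age in days and whether each library came from a different animal are not given in the labels, and p-values are therefore a measure of the spread over these libraries. The whole testis was used, so fewer cells of a type and less RNA per cell cannot be told apart. Genes were described where their base mean, the mean normalized count over the libraries, was at least 10. This held for 17743 of the 38090 genes in the authors' deposited table, or 46.6%, and these are called retained genes below.

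In the testis, Sertoli cells nourish the germ cells and seal the tubule with tight junctions, Leydig cells make testosterone from cholesterol, and peritubular myoid cells contract the tubule wall. Phthalate monoesters are known, chiefly from young rats, to disturb the contact of Sertoli cells with germ cells, after which germ cells are shed or die. MEHP also activates the peroxisome proliferator-activated receptors (PPARs), nuclear receptors that switch on genes of fatty acid uptake and oxidation. The testis identity of the samples was visible in the authors' deposited table. The sperm chromatin gene Prm1 had a base mean of 21525 there, the Sertoli cell gene Clu of 5274 and the Leydig cell gene Cyp17a1 of 995.

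A single gene passed an adjusted p of 0.05 in the authors' deposited table, Serpina3n, which encodes a secreted serine protease inhibitor of the acute-phase response. It rose in MEHP mice by 2.25 ± 0.46 (SE) on the log2 scale, with an adjusted p of 0.0427 by DESeq2 in the authors' deposited table. The base mean was 8.31, below the minimum of 10, and the levels implied by the base mean and the fold change were 3.03 on corn oil and 14.5 on MEHP. The gene lies at chr12:104406729-104414329 on the plus strand (mm10). It was 1 gene of 38081 tested, or 0.00263%. Single libraries were not analysed here, and how many of them carried the rise was not seen. The call was lost when the statistic was read against a t distribution with 11 degrees of freedom (adjusted p 0.999) and under the Benjamini-Yekutieli adjustment (adjusted p 0.475).

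No retained gene passed an adjusted p of 0.05. The count was 0 of 17738, or 0%, when the authors' DESeq2 p-values were adjusted over these genes by Benjamini-Hochberg (BH), and the smallest adjusted p was 0.135. At an unadjusted p under 0.05 there were 636 genes, of which 302 were higher in MEHP mice (1.7%) and 334 lower (1.88%). These shares are the background for all counts below, and none of the genes named from here on changed past the adjusted threshold unless that is stated. The median log2 fold change of the 17743 genes was -0.0018 and 49.4% of them lay above 0. The changes were small beside their errors. The median size of a log2 fold change was 0.13 at a base mean of 10 to 50, with a median SE of 0.23. It was 0.048 at 200 to 1000, with a median SE of 0.073. At the last level a gene of median SE would have needed a log2 change of 0.34 to pass, against 1.07 at a base mean of 10 to 50. For 99.9% of the genes at 200 to 1000 the 95% interval lay within 1 log2 unit of 0, and for 99.0% within 0.5.

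**Figure D1:**
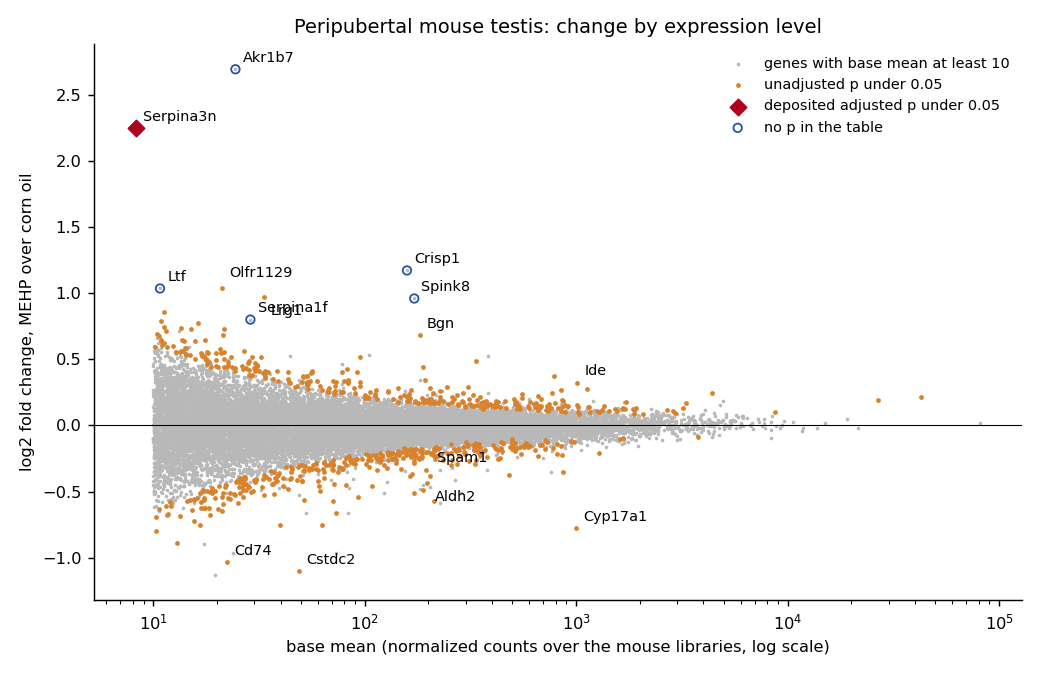
Log2 fold change of MEHP over corn oil against base mean (log axis) for the retained genes, with Serpina3n added. Serpina3n, the diamond at 2.25, stands alone as past the adjusted threshold, 636 genes in orange have an unadjusted p under 0.05, and 5 genes in blue rings have no p in the table.

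Among the 12 higher and 12 lower genes of smallest p, the smallest belonged to Olfr1129, an olfactory receptor gene, at 1.04 ± 0.23 in the authors' deposited table (adjusted p 0.144 by DESeq2). Its implied levels were 14.2 on corn oil and 29.2 on MEHP, a low expression for which reads of related receptor genes cannot be set aside. The next was Spam1, the hyaluronidase on the sperm surface, at -0.38 ± 0.09 in the authors' deposited table (adjusted p 0.370 by DESeq2), with implied levels of 227 and 174. Aldh2, the mitochondrial aldehyde dehydrogenase, followed at -0.43 ± 0.11 in the authors' deposited table (adjusted p 0.574 by DESeq2). Olfr1129 was low in level and higher in MEHP mice, Spam1 and Aldh2 were alike in level and lower, and the adjusted p of every other gene of the 24 was 0.997 in the authors' deposited table.

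The 10 other lower genes had varied roles and shared an adjusted p of 0.997 in the authors' deposited table. Cd74, the invariant chain of antigen presentation, stood at -1.03 ± 0.27 in the authors' deposited table, with implied levels of 29.3 on corn oil and 14.3 on MEHP. The complement gene C2 stood at -0.54 ± 0.15 and Itih2, a hyaluronan-binding inhibitor chain, at -0.75 ± 0.20 in the authors' deposited table. Csrp1, a smooth-muscle LIM protein, stood at -0.66 ± 0.18 and Mylk, myosin light chain kinase, at -0.30 ± 0.09 there. The fatty acid transporter Cd36 was at -0.75 ± 0.23 and the membrane-binding protein gene Anxa2 at -0.25 ± 0.07 in the authors' deposited table. Tbc1d9b (-0.44 ± 0.13), Bex4 (-0.33 ± 0.10) and the testis-expressed mitochondrial ferritin gene Ftmt (-0.24 ± 0.07) complete the lower 12 of the authors' deposited table.

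The 11 other higher genes had varied roles too. Snrnp35, a protein of the minor spliceosome, stood at 0.29 ± 0.08 and Ide, the insulin-degrading enzyme, at 0.32 ± 0.09 in the authors' deposited table. Chaf1a, the large chromatin assembly factor subunit, stood at 0.52 ± 0.15 and the chromatin remodeller Chd2 at 0.29 ± 0.09 there. Tapbp, which loads peptides onto class I molecules, was at 0.16 ± 0.05 and Fyco1, an adaptor for autophagosome transport, at 0.24 ± 0.07 in the authors' deposited table. The others of the higher 12 in the authors' deposited table were Scgb2b22-ps (0.43 ± 0.12), Cypt15 (0.41 ± 0.12), Kri1 (0.73 ± 0.23), Them6 (0.34 ± 0.11) and Zbtb42 (0.25 ± 0.08). Of the 36 genes named by rule, 7 overlap another retained gene, among them Chaf1a, Kri1 and Chd2. The strand setting of the counting is not given in the sources used here, so reads of such pairs may be shared.

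Among named genes with an unadjusted p under 0.05, the largest positive value after Olfr1129 was that of Lrg1, a plasma glycoprotein of the acute-phase response. It stood at 0.97 ± 0.34 in the authors' deposited table, with implied levels of 23.1 on corn oil and 45.3 on MEHP. Hacd4, an enzyme of long fatty acid synthesis, followed at 0.86 ± 0.31, the retinol transporter gene Stra6 at 0.74 ± 0.29 and Kri1 at 0.73 ± 0.23 in the authors' deposited table. Bgn, the matrix proteoglycan biglycan, was at 0.68 ± 0.24, Timp1, an inhibitor of metalloproteinases, at 0.68 ± 0.25 and Ltbp2, a matrix protein that binds latent growth factor complexes, at 0.65 ± 0.27 there. The largest negative values besides Cd74, Cd36 and Itih2 were Cstdc2 (-1.10 ± 0.43), the heme-regulated repressor gene Bach1 (-0.89 ± 0.30), the adaptor gene She (-0.80 ± 0.33), Cyp17a1 (-0.77 ± 0.35) and the zinc transporter gene Slc39a12 (-0.75 ± 0.27) in the authors' deposited table. Of all retained genes, 7 lay beyond 1 log2 unit, 4 of them higher, and 3 of the 7 had an unadjusted p under 0.05.

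Genes of Leydig cells and steroid synthesis lay lower in MEHP mice nearly throughout, without any passing the adjusted threshold. Of 25 listed genes 22 were retained, and 20 of these were below 0. Their median was -0.23, against -0.0018 over all genes. Unadjusted p-values under 0.05 were found for 3 lower and 0 higher members. Star, which carries cholesterol into the mitochondrion, stood at -0.57 ± 0.22 in the authors' deposited table, with implied levels of 250 on corn oil and 169 on MEHP. Cyp17a1, the 17-hydroxylase and lyase of androgen synthesis, had implied levels of 1231 and 720. Lhcgr, the receptor for luteinizing hormone, stood at -0.46 ± 0.20 in the authors' deposited table.

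The other steps of testosterone synthesis were lower by amounts within about 2 SE. Cyp11a1, which cuts the cholesterol side chain, stood at -0.35 ± 0.31, Hsd3b6 at -0.34 ± 0.27 and Hsd17b3, which makes testosterone, at -0.53 ± 0.30 in the authors' deposited table. Scarb1, a receptor for cholesterol-rich lipoproteins, was at -0.12 ± 0.08 and the outer-membrane protein gene Tspo at -0.21 ± 0.15 there. The regulators Nr5a1 (0.05 ± 0.11) and Gata4 (-0.0048 ± 0.11) lay near 0 in the authors' deposited table. Hsd3b1 was also near 0, at -0.04 ± 0.17. Insl3, a hormone of Leydig cells, had a base mean of 8.38 and a value of -0.37 ± 0.42 in the authors' deposited table. Its annotated span lies within that of Jak3 (0.06 ± 0.18), so reads may be split between both.

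Leydig genes also had large errors for their level. Of the 5422 genes whose base mean reached 200 the median SE was 0.070, and 12 had an SE above 0.25. They included 4 of the 9 Leydig genes at that level, namely Cyp17a1 (0.35), Cyp11a1 (0.31), Prlr (0.28) and Hsd3b6 (0.27) in the authors' deposited table. The others were the collagens Col1a1 (0.38), Col3a1 (0.35) and Col1a2 (0.27), the iron-binding defence protein gene Lcn2 (0.36), Ass1 (0.34), Ephx1 (0.29), the smooth muscle actin gene Acta2 (0.29) and the unnamed locus Gm43305 (0.31). This set was chosen after the values were seen. Ass1, the arginine synthesis enzyme argininosuccinate synthase, stood at -0.59 ± 0.34 in the authors' deposited table.

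Cholesterol genes lay lower as well. Of 29 listed genes 28 were retained, 24 of these were below 0, and the median was -0.11. Unadjusted p-values under 0.05 were found for 6 lower and 0 higher members. Insig1, the sterol sensor's retention protein, stood at -0.34 ± 0.10 in the authors' deposited table, with implied levels of 127 on corn oil and 100.4 on MEHP. The sterol-regulated transcription factors Srebf2 (-0.22 ± 0.10) and Srebf1 (-0.35 ± 0.17) were lower in the authors' deposited table, and so were the late synthesis enzymes Sc5d (-0.37 ± 0.14) and Hsd17b7 (-0.40 ± 0.19). Soat1, which esterifies cholesterol for storage, stood at -0.19 ± 0.09 there. The squalene synthase gene Fdft1 was near 0, at -0.03 ± 0.05 in the authors' deposited table.

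**Figure D2:**
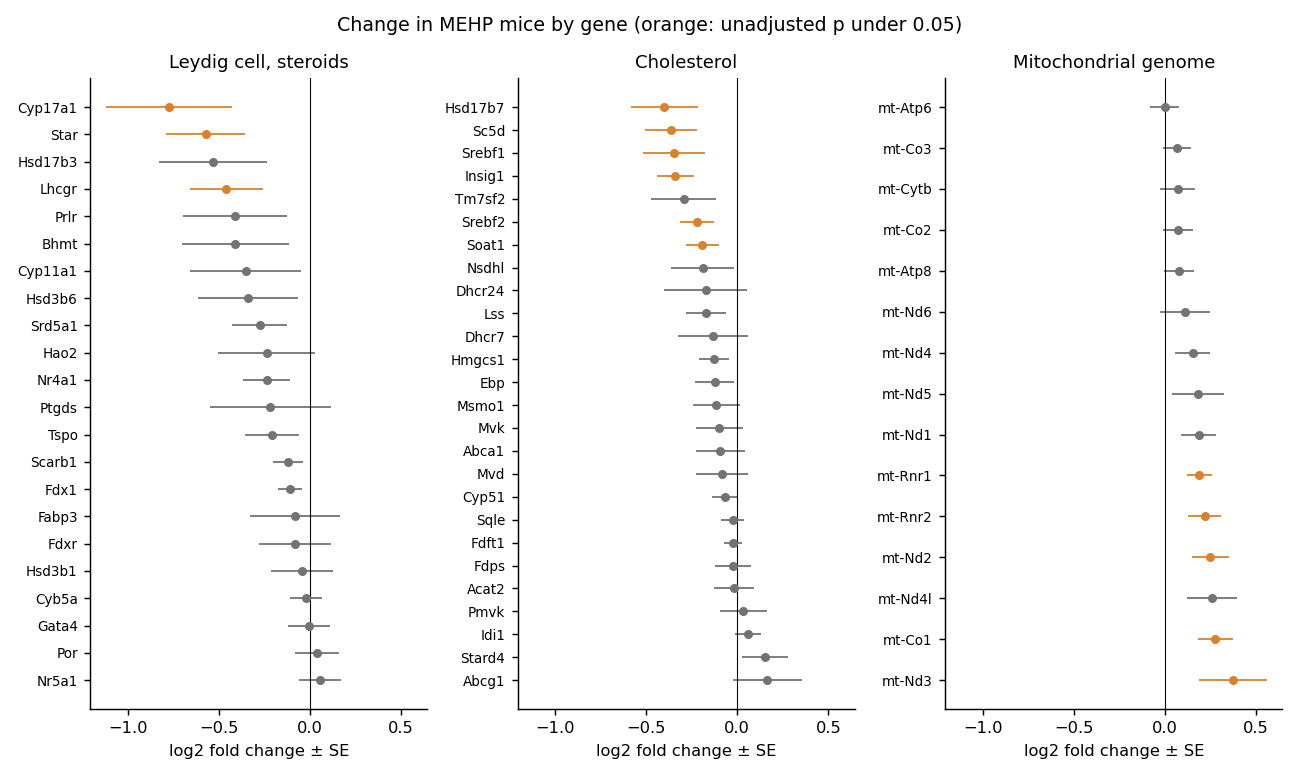
Log2 fold change of MEHP over corn oil with its SE (bars) for retained members of 3 gene lists (26 of the 28 cholesterol genes are drawn), orange where the unadjusted p is under 0.05. Leydig and cholesterol genes lie mostly left of 0 and 14 of 15 genes of the mitochondrial genome right of 0.

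PPAR target genes showed no common rise. Of 45 listed genes of fatty acid uptake and oxidation, 31 were retained, 9 of these were above 0, and the median was -0.078. Unadjusted p-values under 0.05 were found for 2 lower and 0 higher members, Cd36 and the long-chain dehydrogenase gene Acadl (-0.26 ± 0.12 in the authors' deposited table). Cpt1a, which admits fatty acids to the mitochondrion, stood at -0.11 ± 0.08 and Angptl4 at -0.28 ± 0.20 in the authors' deposited table. Fabp4, a fatty acid carrier of fat cells, vessels and macrophages, was at -1.13 ± 0.65 there. For 22 of the 31 genes the 95% interval lay within 0.5 log2 units of 0. Below the base mean minimum, Vnn1, a PPAR alpha target in mouse liver, stood at 1.46 ± 0.59 in the authors' deposited table with a base mean of 3.12, while Pdk4 was at 0.05 ± 0.42 and Fgf21 at 0.12 ± 0.38. The receptors themselves and their partners numbered 9 retained genes, with a median of 0.0097 and no unadjusted p under 0.05.

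Sertoli cell genes centred on 0. Of the 24 listed genes 23 were retained, 9 of these were above 0, and the median was -0.0048. Clu, which encodes the secreted chaperone clusterin, stood at -0.0026 ± 0.056 and Ctsl, the lysosomal protease cathepsin L, at -0.04 ± 0.07 in the authors' deposited table. The transcription factors Sox9 (0.08 ± 0.10) and Wt1 (-0.05 ± 0.09) and the follicle-stimulating hormone receptor gene Fshr (0.25 ± 0.26) had an unadjusted p above 0.05 in the authors' deposited table. Unadjusted p-values under 0.05 were found for the androgen-dependent homeobox gene Rhox5 (-0.26 ± 0.11) and for Nr0b1 (0.23 ± 0.12), which encodes the repressor Dax1, in the authors' deposited table. For 20 of the 23 genes the 95% interval lay within 0.5 log2 units of 0.

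Junction genes were also close to 0. Of the 23 retained ones, 18 were below 0, the median was -0.042 and none had an unadjusted p under 0.05. The tight junction gene Cldn11 stood at -0.05 ± 0.07, the cell adhesion gene Nectin3 at -0.03 ± 0.04, Cdh2, the N-cadherin, at 0.05 ± 0.06 and Tjp1 at -0.01 ± 0.08 in the authors' deposited table. Cytoskeleton genes had a median of -0.016 over 20 members, of which 9 were above 0. Those with an unadjusted p under 0.05 were 5 lower ones, Anxa2, the tubulins Tuba1b (-0.20 ± 0.08), Tubb3 (-0.18 ± 0.07) and Tuba1a (-0.17 ± 0.08) and the actin cross-linker Flna (-0.46 ± 0.22) in the authors' deposited table. Tubulin genes are close copies, so the split of reads among them is uncertain.

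Spermatocyte and spermatogonial genes lay close to 0 in MEHP mice, while spermatid genes lay mostly below 0 by small amounts. The 33 spermatocyte genes had a median of -0.0015 with 16 above 0, and the 21 spermatogonial genes a median of -0.025 with 7 above 0. The 23 round spermatid genes had a median of -0.11 with 19 below 0, and the 22 elongating spermatid genes one of -0.059 with 17 below 0. Round spermatid members with an unadjusted p under 0.05 were Lyzl4 (-0.22 ± 0.09), the acrosomal membrane gene Spaca1 (-0.18 ± 0.08) and Spata16 (0.12 ± 0.06), an acrosome gene that was higher, in the authors' deposited table. The protamine genes Prm1 (-0.02 ± 0.14) and Prm2 (-0.04 ± 0.17) and the transition protein genes Tnp1 (0.01 ± 0.13) and Tnp2 (-0.02 ± 0.13) lay near 0 there. For 32 of 33 spermatocyte and all 23 round spermatid genes the 95% interval lay within 0.5 log2 units of 0. Unadjusted p-values under 0.05 were also found for the meiosis genes Rec8 (-0.15 ± 0.06) and Terb1 (0.18 ± 0.08), for Tex101 (-0.09 ± 0.05) and, among spermatogonial genes, for the retinoic acid receptor gene Rarg (0.56 ± 0.24) in the authors' deposited table.

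Genes of other cells of the interstitium and tubule wall lay on the same side of 0 as the Leydig genes. Peritubular myoid genes had a median of -0.19 over 12 members, 11 of them below 0, with Mylk, the tropomyosin gene Tpm1 (-0.34 ± 0.13) and the myosin light chain gene Myl9 (-0.25 ± 0.11) at an unadjusted p under 0.05 in the authors' deposited table. Acta2 stood at -0.51 ± 0.29 there, while Tagln, another contractile gene, was at 0.52 ± 0.30. Macrophage genes had a median of -0.15 over 18 members, 15 of them below 0. Besides Cd74, the class II gene H2-Ab1 (-0.33 ± 0.14) had an unadjusted p under 0.05, whereas Adgre1, Csf1r and Cd68, which mark most macrophages, stood at -0.14 ± 0.27, -0.15 ± 0.17 and 0.07 ± 0.25 in the authors' deposited table. Endothelial genes had a median of -0.13 over 8 members, 7 of them below 0, with the receptor gene Kdr at -0.53 ± 0.21 in the authors' deposited table. The part of these cell types in the Leydig values was not tested. Fibroblast and matrix genes did not share the direction, with 11 of 18 above 0, a median of 0.041 and Col4a2 (0.33 ± 0.15) at an unadjusted p under 0.05 in the authors' deposited table.

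**Figure D3:**
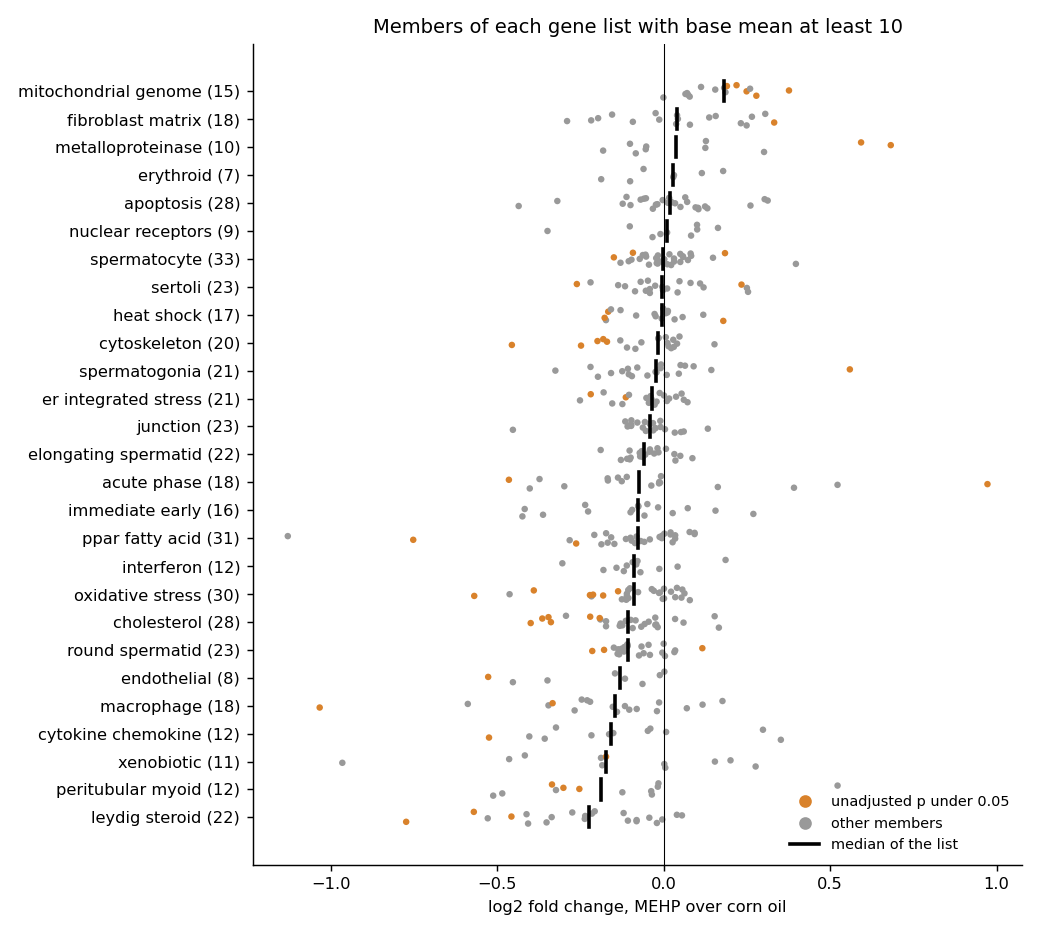
Log2 fold change of MEHP over corn oil for the members of each gene list (dots, orange at an unadjusted p under 0.05) with the median of the list (bar) and the number of members in brackets, for lists with at least 7 members. The medians run from -0.23 for Leydig and steroid genes to 0.18 for the mitochondrial genome, and most lists lie within 0.15 of 0.

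Inflammatory genes were low in level and showed no common rise. Of 31 cytokine and chemokine genes, 19 had a base mean under 10, among them Ccl2 (0.479), Cxcl10 (0.707) and Il1b (3.09) in the authors' deposited table. The 12 others had a median of -0.16, but all 31 one of -0.049 and the 4 with a base mean of 50 or more one of -0.044, with Cebpd, an inflammation-induced transcription factor, at -0.53 ± 0.19 in the authors' deposited table. The neutrophil list left 3 genes and the lymphocyte list 4, with 0 unadjusted p-values under 0.05. The 12 interferon-induced genes had a median of -0.088 and none had an unadjusted p under 0.05. Acute-phase genes had a median of -0.075 over 18 members, 4 of them above 0. That median was -0.12 with no filter and -0.015 at base means of 50 or more. Lrg1 was high, Lcn2 stood at 0.52 ± 0.36 and the complement gene C3 at 0.39 ± 0.35, whereas Serpina3c, a relative of Serpina3n, was at -0.47 ± 0.21 in the authors' deposited table. Metalloproteinase and inhibitor genes had a median of 0.036 over 10 members, which turned to -0.084 at base means of 50 or more, with Timp1 and Timp3 (0.59 ± 0.30) at an unadjusted p under 0.05 in the authors' deposited table.

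Stress and death genes gave few values apart from 0, except for antioxidant genes, which lay mostly lower. None of 28 apoptosis genes had an unadjusted p under 0.05, 16 were above 0, and the median was 0.018. Bax stood at 0.10 ± 0.22, the p53 target Cdkn1a at -0.12 ± 0.12 and Mdm2 at 0.02 ± 0.05 in the authors' deposited table. None of 16 immediate early genes had an unadjusted p under 0.05 either, with a median of -0.077. Heat shock genes had a median of -0.0066 over 17 members, with the chaperone partner Bag3 at 0.18 ± 0.06 and Hspa8 at -0.17 ± 0.08 in the authors' deposited table. Genes of endoplasmic reticulum and integrated stress had a median of -0.037 over 21 members. Antioxidant genes had a median of -0.090 over 30 members, 21 of them below 0, with 6 lower and 0 higher at an unadjusted p under 0.05. These were the glutathione transferases Gsta3 (-0.57 ± 0.18), Gsta4 (-0.18 ± 0.08), Gstm1 (-0.22 ± 0.11) and Gstm2 (-0.21 ± 0.10), the peroxiredoxin gene Prdx1 (-0.14 ± 0.06) and the cystine importer gene Slc7a11 (-0.39 ± 0.19) in the authors' deposited table. The heme oxygenase gene Hmox1 (-0.11 ± 0.28) and the glutathione synthesis gene Gclm (0.00057 ± 0.075) had an unadjusted p above 0.05 there. Among 11 xenobiotic genes the median was -0.17, but -0.0042 over all 24 listed genes with no filter and -0.086 over the 6 with a base mean of 50 or more, with Tiparp, a target of the aryl hydrocarbon receptor, at -0.17 ± 0.09.

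Transcripts of the mitochondrial genome lay higher in MEHP mice. Nuclear genes of the mitochondrion, described below as an ontology term, lay slightly lower, with a median of -0.016 over 1528 retained genes. Of the 13 protein and 2 ribosomal RNA genes of the mitochondrial genome, 14 were above 0, with a median of 0.18 and 5 higher and 0 lower at an unadjusted p under 0.05. The ribosomal RNAs mt-Rnr1 and mt-Rnr2 stood at 0.19 ± 0.07 and 0.22 ± 0.09 in the authors' deposited table, with base means of 26862 and 42810. The complex IV gene mt-Co1 was at 0.28 ± 0.10, with implied levels of 1029 on corn oil and 1248 on MEHP. The complex I genes mt-Nd2 (0.25 ± 0.10) and mt-Nd3 (0.38 ± 0.19) had an unadjusted p under 0.05 in the authors' deposited table, and mt-Atp6 stood at -0.0015 ± 0.081. The 20 mitochondrial transfer RNA genes that were retained did not share this, with 8 above 0 and a median of -0.037. None of these genes passed the adjusted threshold, and copies of mitochondrial sequence in the nuclear genome make the read assignment uncertain.

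The authors also deposited a test of gene ontology (GO) terms on the ranked Wald statistics, in which 108 of 5293 terms passed an adjusted p of 0.05. These were 62 of 3664 biological processes, 33 of 651 cellular components and 13 of 978 molecular functions. The direction was read from the gene lists that the authors deposited for the 10 top terms of each ontology. These lists hold no gene with a blank name, and so none of the X, Y and mitochondrial chromosomes. Of the 30 top terms, 18 had a median Wald statistic below 0 and 12 above it, and each kept its sign among retained genes. Terms overlap and genes within a term are not independent, so the passing terms are not separate observations. Of the passing terms, 95 were matched by name in the authors' deposited test of the peripubertal rat, and 41 of these passed there too. Olfactory receptor activity, centriole and lipid metabolic process were among the 41, whereas organonitrogen compound biosynthetic process was not. The direction of the terms in the rat and the share of all rat terms that passed were not analysed here.

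The 18 lower terms included those of metabolism, mitochondria, ribosomes and lipids, and also endoplasmic reticulum (881 of 1594 genes below 0), membrane-enclosed lumen (236 of 390), identical protein binding (1173 of 2197) and amide binding (232 of 388). The term organonitrogen compound biosynthetic process had 518 of 864 genes below 0 and a median statistic of -0.22 (adjusted p 2.95e-09 in the authors' deposited table). The term mitochondrion had 1000 of 1720 genes below 0 (adjusted p 7.15e-08 in the authors' deposited table), and organelle inner membrane had 324 of 510 below 0. Of the 194 genes of the ribosomal subunit term, 130 lay below 0, with a median statistic of -0.39 (adjusted p 1.91e-05 in the authors' deposited table). Lipid metabolic process had 640 of 1123 genes below 0 (adjusted p 0.000131 in the authors' deposited table), and 35 of its 816 retained genes were lower at an unadjusted p under 0.05 against 8 higher. Small molecule metabolic process (812 of 1435 below 0) and oxidoreductase activity (385 of 690 below 0) were lower too. The term steroid metabolic process passed with 242 genes (adjusted p 0.00401 in the authors' deposited table), but its direction was not analysed here.

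The 12 higher terms included those of centrioles, DNA and histone binding, receptor signaling and olfactory receptors. Centriole had 87 of 130 genes above 0 and a median statistic of 0.41 (adjusted p 2.92e-06 in the authors' deposited table), and 5 of its genes were higher and 0 lower at an unadjusted p under 0.05. Microtubule organizing center had 374 of 664 genes above 0, histone binding 135 of 234 and DNA binding 1170 of 2181. Olfactory receptor activity had 485 of 817 genes above 0 (adjusted p 1.22e-07 in the authors' deposited table), but the median base mean of its genes was 2.47 and 158 of them reached 10. Among 161 olfactory receptor genes of the Olfr name series that were retained, 60.9% lay above 0, beside 49.4% of all retained genes. Among 398 with a base mean from 1 to 10, 60.8% did, beside 52.6% of all genes at that level. Among 329 with a base mean under 1 the shares were 51.1% and 50.9%.

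**Figure D4:**
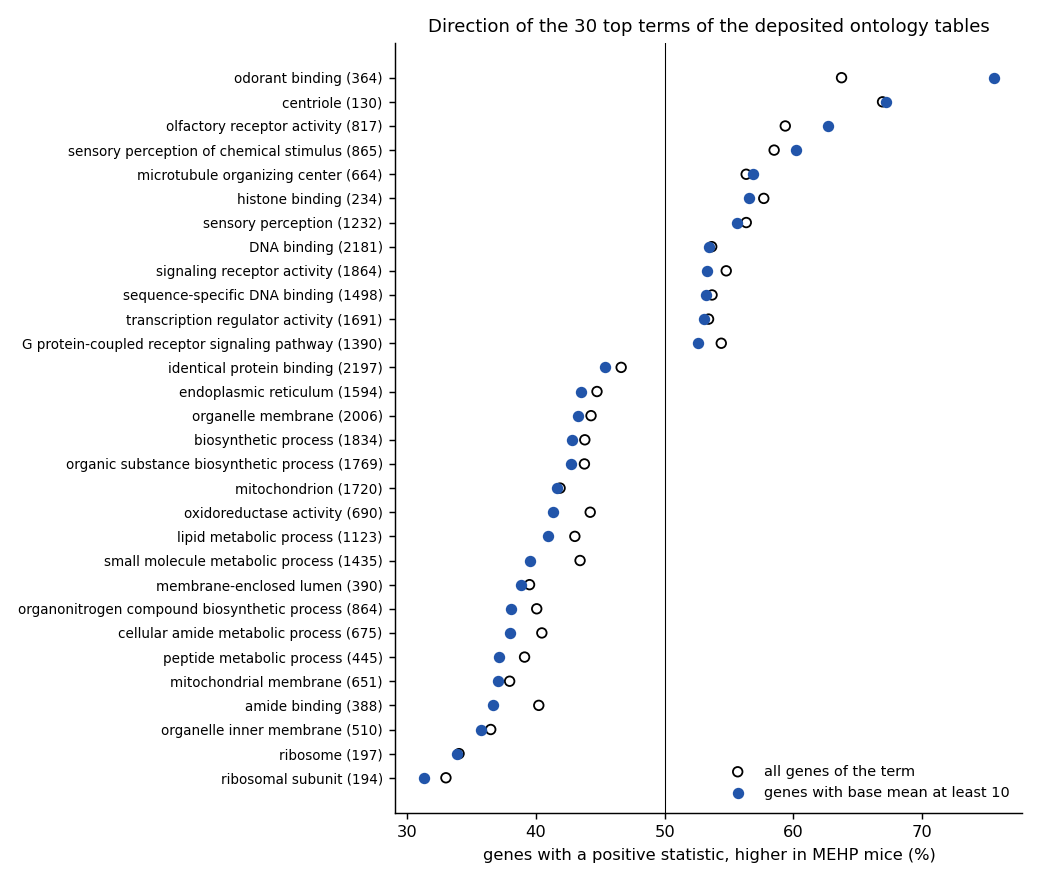
Share of genes with a positive Wald statistic (higher in MEHP mice, %) in each of the 30 top GO terms, for all genes of the term (open) and for its retained genes (filled), with the number of genes in brackets. Ribosome, mitochondrion and metabolism terms lie below 50% and centriole, chromatin and olfactory terms above it.

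Direction also went with gene structure and chromosome. Of the 13900 retained protein-coding genes, the shortest 20% by exonic length (up to 2310 bases) had 39.7% above 0. The longest 20% (from 7691 bases) had 57.8%. The shares in between were 43.9%, 49.2% and 50.2%. The shortest 20% held 92 lower and 43 higher genes at an unadjusted p under 0.05, and the longest 23 lower and 73 higher. The genes of the ribosomal subunit term had a median exonic length of 2114 bases and those of centriole 5183, while the median over all protein-coding genes was 4379. Round and elongating spermatid genes had median lengths of 1596 and 1553.5 bases, spermatocyte genes 2734 and spermatogonial genes 3820. The part of exonic length in the GO results and in the list medians was not tested. The genes of the mitochondrial genome went the other way, with a median of 955 bases and higher values.

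Genes on the X chromosome lay lower, with 38.8% of 595 above 0 and a median of -0.034, against 49.7% of 17039 autosomal genes. By annotated class, 66.2% of 198 processed pseudogenes, 66.7% of 78 sense intronic transcripts and 60.7% of 631 unconfirmed transcripts were above 0, beside 48.2% of protein-coding genes. These are shares of genes, which are not replicates.

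For 9 genes the authors' deposited table gave a fold change and no p, and all 9 were higher in MEHP mice. DESeq2 leaves the p out where a library holds an extreme count. By default it does so in smaller groups, here the 6 MEHP libraries. In larger groups, here the 7 corn oil libraries, it replaces such counts. The part of this rule in the shared direction was not tested, and the direction is not read here as a result about MEHP. The 9 genes included Crisp1 (1.17 ± 1.32), a sperm-binding protein of the epididymis, Spink8 (0.96 ± 1.15) and Akr1b7 (2.70 ± 0.97), an aldose reductase of the vas deferens and adrenal gland, in the authors' deposited table. The others were the prostaglandin synthase gene Ptgs2 (4.76 ± 2.91), Ltf, Krt19, Serpina1f, Fxyd4 and Inmt. Of the 15 epididymis markers listed, 4 were retained, and their values ranged from -0.90 to 1.17 with a median SE of 0.85. The part of epididymal tissue in the rise of Serpina3n and in the values of Lcn2 and Lrg1 was not tested. The erythroid list had a median of 0.028 over 7 genes and the adipocyte list one of -0.063 over 4.

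The mouse response differed from that of peripubertal rats (7 on corn oil, 7 on MEHP) given the same dose, for which the rat effect was derived from the authors' treatment term and their interaction term of age and treatment. Of 10621 genes matched by symbol that reached the base mean minimum in both, the log2 fold change was lower in the mouse for 132 (1.24%) and higher for 72 (0.678%), by a Wald test of the difference with BH adjustment. The rat base mean covers adult as well as peripubertal rats, so a gene could reach the minimum through the adults. The number of differing genes fell from 204 to 5 with the larger SE of the interaction term in place of the derived rat SE, and to 2 with a t distribution. For 27 matched genes the derived rat value was called and at least 1, and the mouse 95% interval lay wholly below 1 for 25 of them. Among all 17743 retained mouse genes the interval lay within 1 log2 unit of 0 for 17449, so this count is not particular to the 27. The 402 matched genes that were higher in the rat had a median of 0.42 there and -0.011 in the mouse, where 181 lay above 0. The 257 that were lower in the rat had a median of -0.22 there and 0.017 in the mouse, where 97 lay below 0. These counts were 45.0% above 0 for the rat-higher set and 37.7% below 0 for the rat-lower set. Of all 10621 matched genes, 5077 lay above 0 in the mouse. The rat-higher and rat-lower sets were chosen by their rat values, which draws the rat medians away from 0. Of these 659 genes, 5.92% had an unadjusted p under 0.05 in the mouse, beside 3.59% of all retained mouse genes. The latter share also covers genes without a match in the rat, so the sets are unlike. It was 2.98% at base means of 10 to 50 and 4.42% at 200 to 1000. The species also differ in build, annotation and library set, and the part of these in the difference was not tested.

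The secretory enzyme gene Pam stood at -0.12 ± 0.12 in the mouse and 1.92 ± 0.19 in the rat, and Ctsl at -0.04 ± 0.07 and 1.15 ± 0.14 (adjusted p 9.1e-16 and 4.59e-11 by the Wald test). The adhesion and junction list differed in 7 of 20 matched members, all lower in the mouse, beside 1.24% of all matched genes. The 7 included Cldn11 (-0.05 in the mouse, 0.29 in the rat) and Nes (-0.08 and 1.63). Other lists held members lower in the mouse too, with 4 of 17 cytoskeleton, 3 of 19 Sertoli cell and 3 of 8 acute-phase genes. Over all matched genes, 5 calls were left with the interaction SE and 2 with a t distribution. The transition protein gene Tnp2 differed the other way, at -0.02 ± 0.13 in the mouse and -5.57 ± 1.06 in the rat. Its level in the peripubertal rats alone was not analysed here. Cd74 was at -1.03 in the mouse and 0.76 in the rat. Of the genes named here, Pam and Ctsl kept the call under both alternatives, whereas Tnp2 (adjusted p 0.329 with a t distribution and 0.212 with the interaction SE by the Wald test), Cd74 (0.329 and 0.164), Cldn11 and Nes lost it under each. For Bgn (0.68 and 1.08) and Timp1 (0.68 and 1.75) the difference did not pass, with unadjusted 95% intervals of mouse minus rat from -0.95 to 0.16 and from -1.85 to -0.29 (adjusted p 0.543 and 0.140 by the Wald test). Serpina3n had a base mean of 7.0 in the rat, where it stood at 0.14 ± 0.37, and was too low to enter this comparison.

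**Figure D5:**
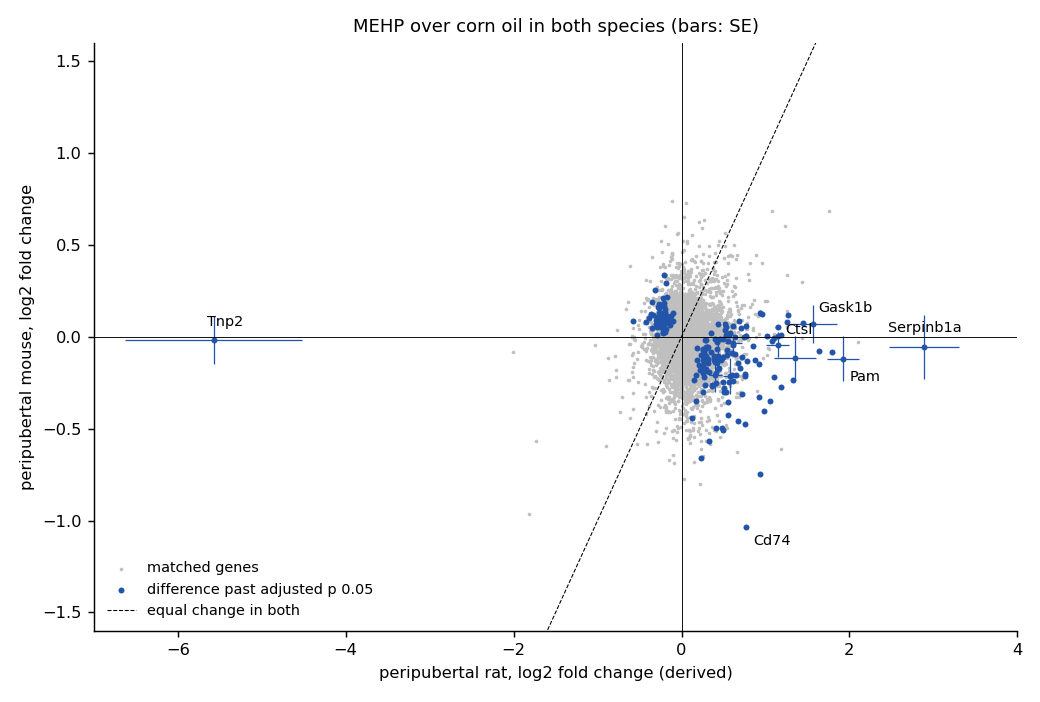
Log2 fold change of MEHP over corn oil in the peripubertal mouse (vertical) against the derived value in the peripubertal rat (horizontal, wider scale) for 10621 matched genes, with SE bars on the 10 genes of smallest p. The 204 genes past the threshold (blue) lie mostly near 0 in the mouse and away from 0 in the rat, and the dashed line marks equal change.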

How the data were processed

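RNA of testis was sequenced by Tag-seq, per the series' design text. Per the submitters' processing notes the tools were FastQC, Bowtie2, DESeq2 and DESeq and the mouse build mm10. Versions, the counting rule and strand use: not given in the sources used here. The authors deposited the base mean, a signal in normalized counts. The authors deposited log2 fold changes with their SE, and a Wald statistic, a score equal to fold change over SE for each gene to within 1.51e-14, so the fold changes were not shrunken. Each p-value and its adjusted form, and the sizes of GO terms (other), were deposited by the authors. The depth of each library is unknown.

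Symbols missing from the table (2006 genes) were taken from GENCODE M21 for 1950 genes by Ensembl ID. P-values were adjusted with statsmodels 0.14.6 in Python 3.11.15. The rat effect is the sum of the treatment and interaction terms, with a variance equal to the difference of their variances. Its statistic had a median absolute difference of 0.353 from the authors' peripubertal rat statistic over 9019 genes. Implied levels assume that the base mean covers all 13 libraries.

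Members and the 31 gene lists were chosen with earlier results of these data known. Genes were named by rule: the called gene, 12 per direction of smallest p and 8 per direction of largest change at an unadjusted p under 0.05, clone names left out. List members named are those at that p or of high level, with others of known role added after their values were seen. Single values of some list members are not reported here.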

Additional observations from a re-analysis of the deposited data

Results flagged for a closer look

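The MEHP effect differed between mice and peripubertal rats, by the Wald test of the difference itself, and the 10 genes of smallest p are given as mouse minus rat log2 fold change. The mouse was lower for Serpinb1a (-2.95), Pam (-2.04), Gask1b (-1.50), Stap2 (-1.47), Ctsl (-1.19), Gstm2 (-0.79), Gm2a (-0.65), Tmem50a (-0.61) and Cpt1a (-0.55). The mouse was higher for Tnp2 (5.55), whose 95% interval ran from 3.47 to 7.64. The level of Tnp2 in the peripubertal rats alone was not analysed here. With a t distribution Pam and Ctsl stayed past the threshold and the other 8 did not (Tnp2 adjusted p 0.329). With the SE of the interaction term Pam, Ctsl, Gstm2, Serpinb1a and Stap2 stayed past it and the other 5 did not (Tnp2 adjusted p 0.212). Single libraries were not analysed here, and none was compared with its group.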

How the results depend on the processing

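No paired analysis was possible because values per library were not analysed here. For the same reason the fits without 1 library each and with edgeR's TMM scaling were not run. The count of called genes, 1, became 0 when BH ran over base means of 50 or more (which leaves Serpina3n out), 0 against a t distribution (11 degrees of freedom) and 0 with the Benjamini-Yekutieli adjustment, and stayed 1 with Holm. Among retained genes it was 0 in each of these. The count of GO terms was 52 at an adjusted p under 0.01 and 147 under 0.1. The epididymis median became 1.17 at a base mean of at least 50, which leaves 1 gene. The medians of the other lists moved by less than their members' median SE, but several moved by over 1.5 times. With no filter and at base means of 50 or more, that of xenobiotic genes became -0.0042 and -0.086, and that of cytokines -0.049 and -0.044. Metalloproteinase genes turned to -0.084 at 50 or more and PPAR, antioxidant and macrophage genes stood at -0.041, -0.057 and -0.093 there. Acute-phase genes stood at -0.12 with no filter and -0.015 at 50 or more. Differing genes between species numbered 2 with a t distribution, Pam and Ctsl, and 5 with the SE of the interaction term, an alternative chosen after seeing the data. The causes of these moves were not tested.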
